A study of Mus musculus with 27 samples.

Results

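The SOX transcription factors followed here are 10 genes: Sox1 and Sox2 of the SOXB1 group, Sox21 of the SOXB2 group, Sox4 and Sox11 of the SOXC group, Sox5 and Sox6 of the SOXD group, and Sox8, Sox9 and Sox10 of the SOXE group. They were chosen by symbol, with earlier results of these data known, and they are 10 of the 37332 genes of the count table. All 10 were among the 18226 genes that passed the filter on low counts. SOX proteins bind DNA through a high mobility group box and usually act beside a partner factor, such as a POU protein. Sox2 sustains pluripotency together with Oct4 and also keeps neural stem cells uncommitted, a role that Sox1 and Sox3 share in the neural lineage. SOXC factors are known for switching on neuronal genes in maturing neurons, and SOXE factors for specifying and maintaining glial cells.

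Polyadenylated RNA longer than 200 nt was measured in 3 mouse cell types after the cells had been split into chromatin (Chr), soluble nucleoplasm (Nuc) and cytoplasm (Cyto). The mESC are the E14 embryonic stem cell line kept with LIF, the mNPC are a neural progenitor line made by the submitters, whose medium held 10 ng/ml of EGF and of FGF, and the mCtx are primary cortical neurons after 5 days in culture. The labels name no edited allele and no drug for any group. No source used here gives the strain, the age or any pooling of the animals behind the mCtx. Each of the 9 groups holds 3 libraries from biological triplicates, 27 in all. Because mESC and mNPC are each a single line, their libraries hold only the spread between cultures of that line. The p-values come from a model that shares the spread over all 9 groups.

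Library totals ran from 10622897 to 24537526 counts. All 8 pluripotency markers were at 1 CPM (the count scaled to its library by TMM) or more in mESC cytoplasm. In mNPC and mCtx cytoplasm 2 and 3 of them were, and Pou5f1 was below 1 CPM in both. All 8 neural progenitor markers reached 1 CPM in mNPC, and all 10 neuron markers did so in mCtx. In cytoplasm 8 of the neuron markers also reached it in mNPC and 5 in mESC. Their cytoplasmic sums were 6363 to 7251 CPM in mCtx, 715 to 851 in mNPC and 172 to 295 in mESC. In mESC cytoplasm 5 of the neural progenitor markers reached it, and in mCtx all 8. One culture stood apart: in each fraction, the mESC library numbered 1 had the most Sox5, Sox6 and Sox21 and the least Sox11 of its group. Where a result given here loses its call or moves by over 1.5 times without the 3 mESC libraries numbered 1, both values are given.

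The genes differ in structure. The deposited gene lengths equal the whole span from start to end, introns included, for all 37332 genes. In GENCODE M21, Sox1, Sox2, Sox21, Sox4 and Sox11 are each a single exon, while Sox5, Sox6, Sox8, Sox9 and Sox10 have introns. Sox5, on the minus strand of chromosome 6 at 143828425 to 144781977 (mm10), spans 953553 bases, of which 14376 are exonic. Sox6, on the minus strand of chromosome 7 at 115471344 to 116038744, spans 567401 bases. The SOXE genes are compact: Sox8 spans 4795 bases on chromosome 17, Sox9 spans 5537 bases on chromosome 11 and Sox10 spans 9578 bases on chromosome 15. Sox11 is counted over 2013 bases only, at 27340697 to 27342709 on the minus strand of chromosome 12. GENCODE M21 gives it 8311 bases, from 27334264 to 27342574, so its counts cover the 5′ end and leave out most of the transcript. The authors' TPM (an abundance scaled for transcript length and depth) come from another program and are given beside the counts where the 2 tables disagree.

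The regions just upstream of 3 members are printed because these genes had different patterns across the cell types: Sox2 was shared by mESC and mNPC, while Sox8, with introns, and Sox21, without, were high in mNPC. RefSeq promoters (GRCm38.p6) were found for 8 of the 10 members. Each line is the 250 bases before the RefSeq start site, 5′ to 3′ on the strand of the gene, with matches to the searched motifs in capitals.
Sox2, chr3:34649745-34649994, plus strand: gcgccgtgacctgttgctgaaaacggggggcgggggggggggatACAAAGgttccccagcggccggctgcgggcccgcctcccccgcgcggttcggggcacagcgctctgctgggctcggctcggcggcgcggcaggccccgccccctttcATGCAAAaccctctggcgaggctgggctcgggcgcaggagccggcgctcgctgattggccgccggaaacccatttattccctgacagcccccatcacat
Sox8, chr17:25570687-25570936, minus strand: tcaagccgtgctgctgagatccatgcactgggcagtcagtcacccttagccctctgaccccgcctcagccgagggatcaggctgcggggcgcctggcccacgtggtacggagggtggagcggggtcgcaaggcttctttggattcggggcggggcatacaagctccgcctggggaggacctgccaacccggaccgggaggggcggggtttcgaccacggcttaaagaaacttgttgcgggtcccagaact
Sox21, chr14:118237031-118237280, minus strand: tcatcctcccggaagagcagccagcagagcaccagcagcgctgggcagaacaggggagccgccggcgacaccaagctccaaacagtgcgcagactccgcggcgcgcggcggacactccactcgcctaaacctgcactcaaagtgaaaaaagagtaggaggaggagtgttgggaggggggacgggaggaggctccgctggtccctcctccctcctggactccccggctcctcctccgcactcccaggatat

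A set of 4 short motifs was searched on both strands: the SOX core ACAAAG, the SOX site AACAAT, the POU octamer ATGCAAA and the TATA motif TATAAA. In the Sox2 window the SOX core lies 206 to 201 bases before the start site and the octamer 99 to 93 bases before it, without overlap. The Sox8 and Sox21 windows hold none of these letters. Over 32851 promoter windows of the same length, 16.5% hold the SOX core, 9.42% the SOX site, 4.12% the octamer and 12.4% the TATA motif. Among the members the SOX core was found for Sox2 and Sox6, the octamer for Sox2, and the SOX site and the TATA motif for Sox6, which has 6 of the 13 member windows. The printed windows are rich in G and C, at 72.0% for Sox2, 65.6% for Sox8 and 65.2% for Sox21, against a median of 52.4% over all windows.

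The SOX transcripts of each cell type had a different make-up. In mESC, Sox2 made up 88.8% of the members' summed TPM in chromatin, 92.2% in nucleoplasm and 96.1% in cytoplasm. Its cytoplasmic TPM was 307 ± 40.2 (SD, n = 3), while the next member, Sox4, stood at 5.34 ± 0.663. In mNPC cytoplasm the sum was 1087 TPM against 319 in mESC, and Sox2 at 321 ± 30.99, Sox4 at 282 ± 63.96 and Sox8 at 228 ± 41.2 carried most of it. Sox4 overlapped both others, every Sox2 library lay above every Sox8 library, and all 3 genes lay above Sox21, at 70.5 ± 10.03. In mCtx cytoplasm the sum was 321 TPM, led by Sox4 at 108 ± 28.4 and Sox11 at 95.7 ± 12.2, which overlapped, and then Sox2 at 40.2 ± 2.98. Sox10 was last in each mCtx fraction, at 0.237 ± 0.214 TPM in cytoplasm. In mNPC chromatin Sox8 led alone, at 539.8 ± 52.4 TPM, above Sox2 at 217 ± 36.2. In mCtx chromatin and nucleoplasm Sox11 led in TPM, at 73.1 ± 3.55 and 85.3 ± 5.79, with all 3 libraries above every other member. By counts, which are not scaled for gene length, Sox11 did not lead in any mCtx fraction. It was at 9.96, 35.2 and 76.6 CPM in chromatin, nucleoplasm and cytoplasm, against 97.7, 347 and 514 for Sox4. Sox11 is counted over 2013 bases and Sox4 over 4795.

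**Figure D1:**
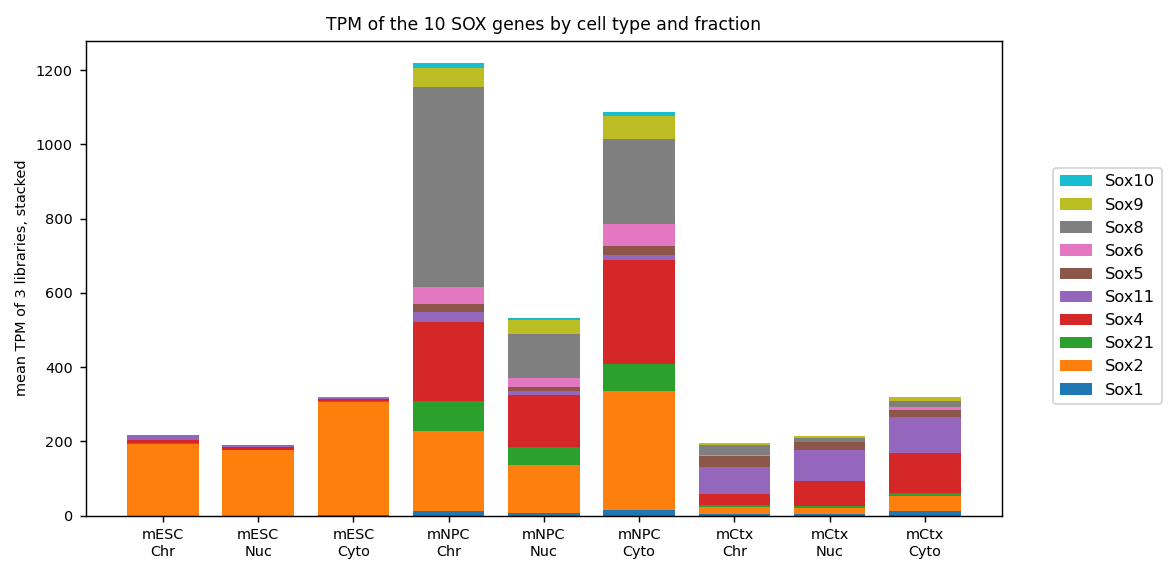
Mean TPM (3 libraries) of the 10 SOX genes, stacked, on the vertical axis, for each cell type and fraction on the horizontal axis. Sox2 makes up most of the mESC bars, the mNPC bars are taller and hold much Sox2, Sox4 and Sox8, and Sox4 and Sox11 take the largest parts of the mCtx cytoplasm bar at 108 and 95.7 TPM.

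In cytoplasm 9 of the 10 members were higher in mNPC than in mESC, where 29.8% of all genes tested were called higher, and none was called lower, against 29.6%. A gene was called when edgeR's quasi-likelihood test gave both an adjusted p under 0.05 and a log2 fold change of 1 or more in either direction. The members' median log2 fold change was 5.63, against -0.01 over all genes. Sox2 was the exception. In chromatin it was again the single member not called, with 9 higher against 25.3% of genes and none lower against 31.9%, and in nucleoplasm Sox2 and Sox11 were not called, with 8 higher against 24.5% and none lower against 32.8%. From mNPC to mCtx cytoplasm 6 members were lower, against 20.0% of all genes, and Sox11 alone was higher, against 24.4%. In chromatin the step from mNPC to mCtx gave 8 lower and 1, Sox5, higher, against 21.4% and 23.5%, and in nucleoplasm 6 lower and Sox11 higher, against 22.1% and 24.6%. In mCtx against mESC cytoplasm 8 members were higher and 2, Sox2 and Sox10, were lower, against 35.7% and 32.2% of all genes. In chromatin 7 were higher and the same pair lower, against 29.3% and 32.3%, and in nucleoplasm 8 and the same pair, against 28.9% and 34.1%. The chromatin call of Sox10 rests on few reads and was lost without any mCtx chromatin library and without the first or second mESC one, at -0.999 without the first mESC library and -1.07 (edgeR adjusted p = 0.207) without all 3 mESC libraries numbered 1. These comparisons share libraries and are not independent of each other. In whole cultures, fewer cells of a type and less RNA per cell cannot be told apart.

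**Figure D2:**
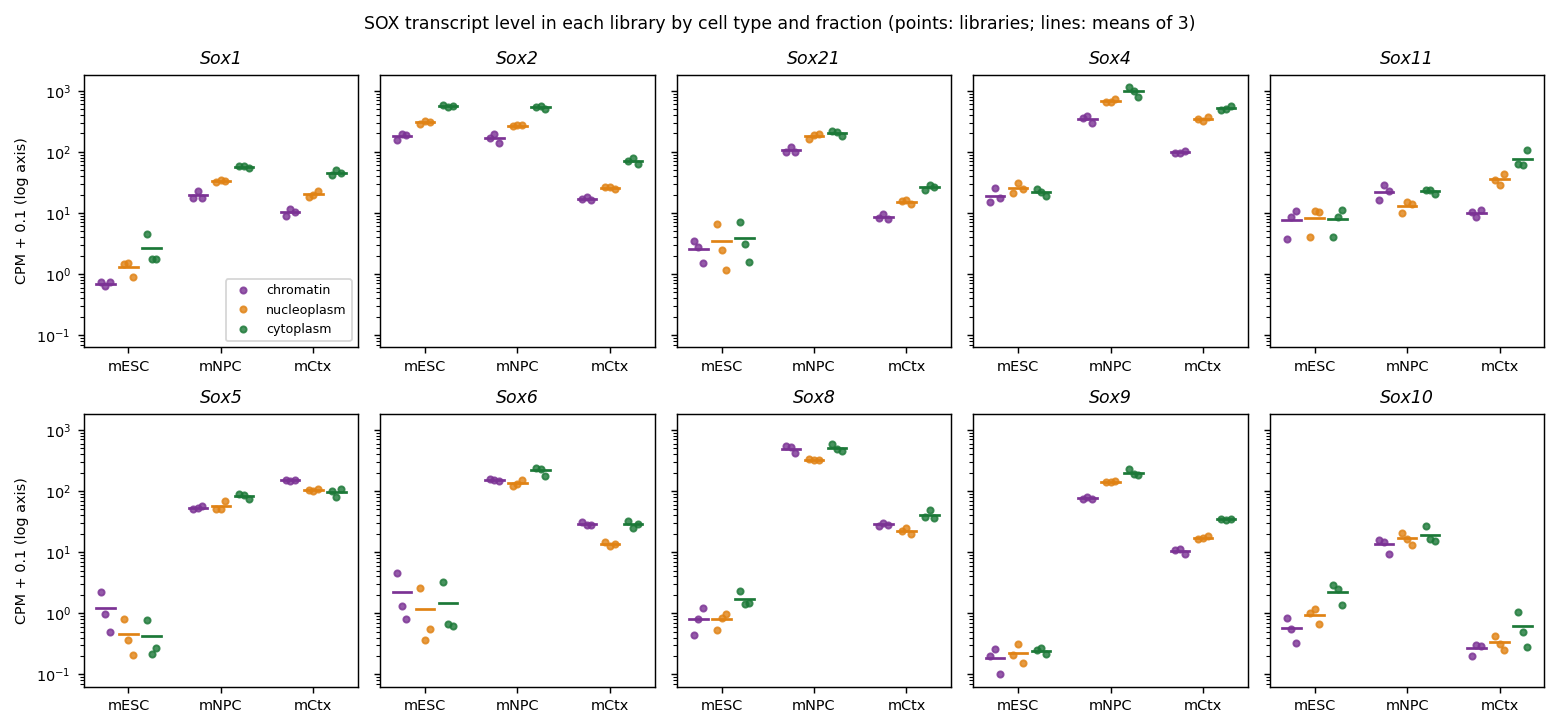
CPM + 0.1 on a log axis for each SOX gene in each library (points) with the mean of 3 (lines), by cell type and colored by fraction. Cytoplasmic Sox2 is level between mESC and mNPC and lower in mCtx. Sox9 goes from a mean of 0.144 CPM in mESC cytoplasm to 199 in mNPC.

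Sox2, the partner of Oct4 in stem cells, had similar cytoplasmic levels in mESC and mNPC. Cytoplasmic levels were 584, 536 and 567 CPM in mESC and 546, 557 and 504 CPM in mNPC, so the groups overlap. The log2 fold change of mNPC over mESC was -0.07 ± 0.12 (SE, edgeR adjusted p = 0.611) in cytoplasm, -0.10 ± 0.12 (adjusted p = 0.454) in chromatin and -0.17 ± 0.12 (adjusted p = 0.197) in nucleoplasm. In TPM the first 2 of these values have the opposite sign and also miss the threshold. The nucleoplasm value was -0.46 on the log2(TPM + 1) scale (limma adjusted p = 0.00129), short of the minimum fold change. By counts the nucleoplasm groups did not overlap, at 288, 320 and 303 CPM in mESC and 260, 273 and 274 in mNPC. Without the 3 mESC libraries numbered 1 the chromatin value was -0.35 (edgeR adjusted p = 0.00879), still short of the minimum fold change. The nucleoplasm value was then -0.03 (edgeR adjusted p = 0.818). In mCtx the cytoplasmic level was 71.1, 78.97 and 63.4 CPM, below every mNPC library and 7.53-fold lower (log2 fold change -2.91 ± 0.13, edgeR adjusted p = 1.25e-16). The decrease was 9.87-fold in chromatin and 10.4-fold in nucleoplasm. All 8 neural progenitor markers were also above 1 CPM in mCtx cytoplasm, with a sum of 1173 to 1612 CPM against 5810 to 6075 in mNPC. Their part in the Sox2 of mCtx was not tested.

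Sox1, a marker of the neural plate and of neural stem cells, was low in mESC and present in both neural cell types. Cytoplasmic Sox1 was 4.35, 1.64 and 1.63 CPM in mESC, 58.3, 58.8 and 53.3 in mNPC, and 41.5, 50.9 and 44.2 in mCtx. The 3 groups do not overlap, and the first mESC library is the high one of its group. The mNPC level was 22.99-fold above mESC (log2 fold change 4.52 ± 0.25, edgeR adjusted p = 4.15e-15). Between mCtx and mNPC Sox1 was not called in any of the 3 fractions, with edgeR adjusted p of 0.161 in cytoplasm, 0.000347 in chromatin and 0.00287 in nucleoplasm. In the last 2 it was the minimum fold change that was not reached. Chromatin Sox1 was called lower in mCtx when scaled by library totals, at -1.09, and on the log2(TPM + 1) scale, at -1.04.

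Sox21, a SOXB2 factor known to counteract SOXB1 factors, was highest in mNPC. Its cytoplasmic level was 7.07, 2.99 and 1.46 CPM in mESC, 221, 207 and 184 in mNPC, and 23.5, 28.7 and 26.5 in mCtx. All mNPC libraries lay above all others. The level was 54.6-fold higher in mNPC than in mESC (edgeR adjusted p = 1.64e-12) and 7.76-fold lower in mCtx than in mNPC (adjusted p = 3.44e-08). In mCtx it stayed 7.04-fold above mESC (adjusted p = 2.58e-07). On the log2 scale the 2 values against mESC, 5.77 and 2.82, were 6.50 and 3.55 without the first mESC cytoplasm library, and 6.49 and 3.55 without all 3 mESC libraries numbered 1. The gene Gm4675 overlaps Sox21 on the opposite strand.

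Both SOXC genes were higher in mNPC than in mESC cytoplasm and then moved apart. Sox4 was 24.5, 22.2 and 18.9 CPM in mESC cytoplasm, 1153, 999 and 799 in mNPC and 478, 494 and 571 in mCtx. The 3 groups do not overlap. Sox4 was 45.1-fold higher in mNPC than in mESC (log2 fold change 5.49 ± 0.20, edgeR adjusted p = 1.6e-18). The log2 fold change of mCtx over mNPC was -0.94 ± 0.17 in cytoplasm and -0.96 ± 0.17 in nucleoplasm, both short of the minimum fold change with edgeR adjusted p of 2.05e-05 and 1.44e-05. It was -1.82 ± 0.17 in chromatin, which was called (edgeR adjusted p = 5.12e-10). On the log2(TPM + 1) scale the first 2 were called as well, at -1.38 and -1.06. By counts the cytoplasm value was called without the third mNPC library, at -1.06, or the third mCtx library, at -1.02. The nucleoplasm value was called without any single one of its 6 libraries, at -1.18 to -1.08.

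Sox11, known in young neurons, was the member that rose from mNPC to mCtx in cytoplasm. It was 3.90, 8.36 and 10.9 CPM in mESC cytoplasm, 23.8, 23.7 and 20.5 in mNPC, and 62.05, 61.1 and 107 in mCtx. The groups do not overlap, and the third mCtx library lies far above the other two. The level in mCtx was 3.38-fold above mNPC in cytoplasm (log2 fold change 1.76 ± 0.34, edgeR adjusted p = 5.91e-05) and 2.74-fold in nucleoplasm (adjusted p = 0.000736). In chromatin the counts went the other way, 15.9, 28.1 and 22.7 CPM in mNPC against 10.4, 8.43 and 11.05 in mCtx, a log2 fold change of -1.16 ± 0.35 (edgeR adjusted p = 0.00476). Leaving out the second mNPC chromatin library ended that call, at -0.95. The authors' TPM had the opposite direction, with 25.1, 33.6 and 29.6 in mNPC chromatin and 72.7, 69.8 and 76.8 in mCtx chromatin, a difference of 1.29 on the log2(TPM + 1) scale (limma adjusted p = 0.000109). The counts cover 2013 bases of Sox11, as given above, and the transcript model behind its TPM was not examined. The 2 tables disagree on its chromatin direction, and the cause was not tested.

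**Figure D3:**
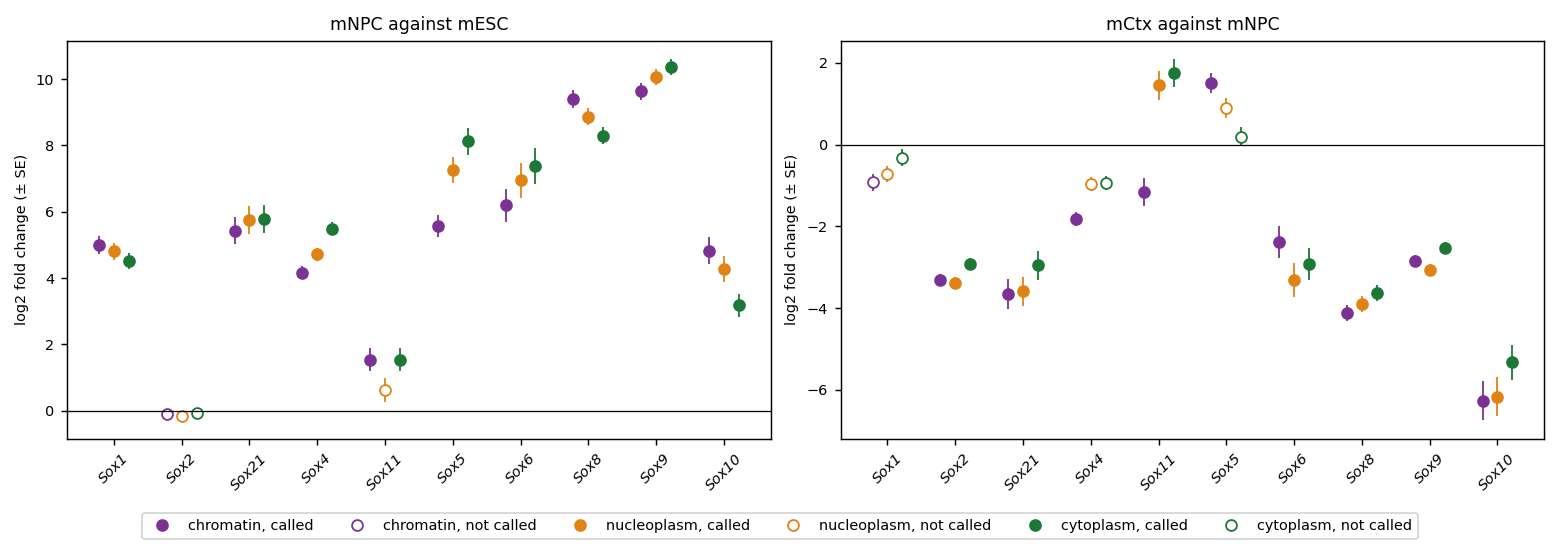
Log2 fold change (± SE, edgeR) of each SOX gene on the vertical axes, mNPC against mESC on the left and mCtx against mNPC on the right, colored by fraction, with filled points for called values. On the left all members except Sox2 lie above 0, and on the right most lie below 0. The chromatin point of Sox11 at -1.16 has the opposite sign in TPM.

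The SOXD genes Sox5 and Sox6, which lack an activation domain of their own and modulate other SOX factors, had different patterns in mCtx. Sox5 was 0.663, 0.113 and 0.175 CPM in mESC cytoplasm, from 9, 2 and 3 reads, then 90.2, 86.95 and 72.8 CPM in mNPC and 98.9, 79.7 and 108 in mCtx. The mNPC and mCtx groups overlap, with a log2 fold change of 0.19 ± 0.24 (edgeR adjusted p = 0.5) that has the opposite sign in TPM. In chromatin Sox5 was higher in mCtx, at 152, 144 and 154 CPM against 50.1, 52.4 and 55.96 in mNPC, without overlap (log2 fold change 1.51 ± 0.25, edgeR adjusted p = 5.77e-06). On the log2(TPM + 1) scale that difference was 0.58 and was not called. Sox6 was 3.09, 0.565 and 0.524 CPM in mESC cytoplasm, with the first library high, 241, 233 and 179 in mNPC and 32.4, 24.7 and 29.3 in mCtx. It was 7.58-fold lower in mCtx than in mNPC (log2 fold change -2.92 ± 0.40, edgeR adjusted p = 3.96e-07). Sox5it on the same strand and Sox5os1 to Sox5os5 on the other overlap Sox5, and Sox6os overlaps Sox6.

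The SOXE genes were all higher in mNPC than in mESC, and Sox9 and Sox8 had the largest fitted changes of the 10 members in cytoplasm with all libraries. Without the 3 mESC libraries numbered 1, Sox5 and Sox6 went from 8.13 and 7.38 to 9.10 and 8.61, above Sox8 at 8.53. Sox8, which is active in glial precursors, was 2.21, 1.30 and 1.40 CPM in mESC cytoplasm and 584, 480.0 and 455 in mNPC, a 314-fold difference (log2 fold change 8.29 ± 0.25, edgeR adjusted p = 4.79e-20). In chromatin it went from 0.341, 0.693 and 1.12 CPM to 538, 523 and 428, a log2 fold change of 9.41 ± 0.27. Sox8 in mCtx cytoplasm was 38.2, 48.2 and 36.7 CPM, 12.3-fold below mNPC (edgeR adjusted p = 3.62e-15) and 25.5-fold above mESC.

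Sox9, which drives the onset of gliogenesis and maintains neural stem cells, rested on 2, 3 and 2 reads in mESC cytoplasm and on 5306, 3405 and 2443 reads in mNPC. In CPM the mNPC values were 228, 188 and 182. The log2 fold change was 10.36 ± 0.25 (edgeR adjusted p = 1.03e-21), a size that depends on the few mESC reads. Sox9 in mCtx was 35.2, 33.6 and 34.3 CPM, 5.80-fold below mNPC. Sox10, the SOXE factor of oligodendrocytes and neural crest, was the one SOXE member that was lower in mCtx than in mESC. It was 2.80, 2.37 and 1.28 CPM in mESC cytoplasm, 26.4, 16.1 and 15.2 in mNPC, and 0.956, 0.403 and 0.182 in mCtx. The mCtx values come from 14, 8 and 4 reads and lie below all mESC libraries. Sox10 was 40.02-fold lower in mCtx than in mNPC (edgeR adjusted p = 1.58e-11) and 4.43-fold lower than in mESC (log2 fold change -2.15 ± 0.46, adjusted p = 0.000115). Without the first mCtx cytoplasm library these log2 fold changes went from -5.32 and -2.15 to -6.02 and -2.85. The call against mESC was lost on the log2(TPM + 1) scale, at -0.64.

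Glial marker sums were highest in mNPC, where cytoplasmic Sox6, Sox8, Sox9 and Sox10 were also highest, while cytoplasmic Sox5 overlapped between mNPC and mCtx. Of 8 oligodendrocyte lineage markers, 7 were at 1 CPM or more in mNPC cytoplasm, with a sum of 2765 to 2890 CPM, against 4.95 to 10.9 in mESC and 267 to 317 in mCtx. Mog, of mature oligodendrocytes, was below 1 CPM in the cytoplasm of all 3 cell types. All 8 astrocyte markers reached 1 CPM in mNPC, with a sum of 1864 to 2321 CPM against 146 to 148 in mESC and 590.3 to 616 in mCtx, where S100b was below it. Their part in the SOX results was not tested.

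In chromatin against cytoplasm, more members were called lower than higher by counts. In mESC 4 members were lower, against 21.6% of all genes, and Sox5 was higher, against 34.4%. In mNPC 4 were lower, against 21.3%, and none was called higher, against 27.5%. In mCtx 7 were lower, against 24.4%, and none was called higher, against 26.2%. The members' median log2 fold change was -0.63, -0.80 and -1.66 in mESC, mNPC and mCtx, where the median over all genes was 0.37, 0.12 and 0.00. Each value is a share of the RNA within its fraction, and no amount per cell is given. They depend on the scaling: with library totals the median over all genes moved to 0.88, 0.43 and 0.24, and on the log2(TPM + 1) scale to 0.80, 0.76 and 0.59. In TPM 1, 2 and 3 members were called in place of 5, 4 and 7. Those in mESC, Sox11, and in mNPC, Sox8 and Sox11, were higher in chromatin, and only in mCtx were members called lower, namely Sox1, Sox2 and Sox4. Over all genes, 10484, 10023 and 8828 were called higher in chromatin on the log2(TPM + 1) scale in mESC, mNPC and mCtx. The numbers called lower were 1959, 2076 and 2028. In TPM the members' median log2 ratio of mean TPM was 0.09, -0.33 and -0.82. Of the called genes, 61.4%, 56.4% and 51.8% were higher in chromatin by counts, 76.5%, 66.5% and 61.1% with library totals, and 84.3%, 82.8% and 81.3% in TPM.

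**Figure D4:**
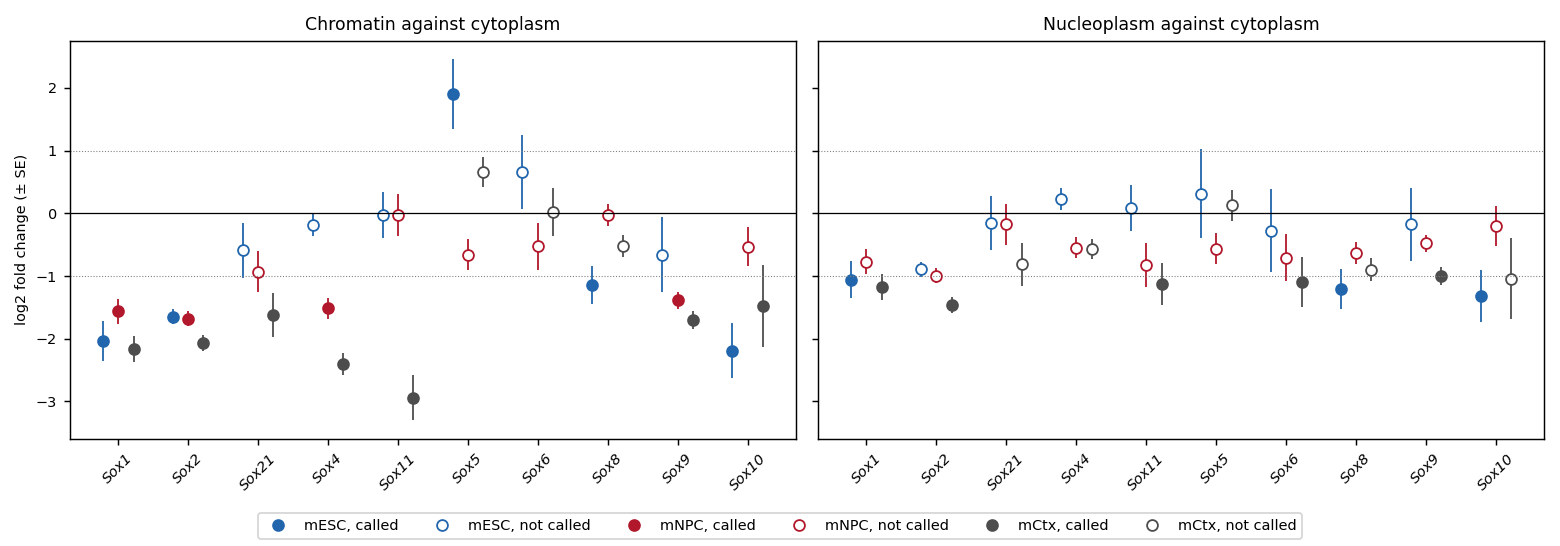
Log2 fold change (± SE, edgeR) of each SOX gene on the vertical axes, chromatin against cytoplasm and nucleoplasm against cytoplasm in separate panels, colored by cell type, with filled points for called values. Sox1 and Sox2 lie below -1 in chromatin in all 3 cell types and Sox11 is at -2.94 in mCtx; on the TPM scale Sox1 and Sox2 were called in mCtx alone and Sox11 in mCtx was not called.

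Sox1 and Sox2 were lower in chromatin in every cell type by counts. Chromatin Sox2 was 155, 193 and 191 CPM in mESC, 167, 195 and 140.3 in mNPC, and 16.6, 18.1 and 16.1 in mCtx, each time below all cytoplasmic libraries. Its log2 fold change was -1.65 ± 0.12, -1.68 ± 0.12 and -2.07 ± 0.13 (edgeR adjusted p = 6.45e-12, 4.17e-12 and 1.96e-13). For Sox1 it was -2.04 ± 0.32, -1.56 ± 0.20 and -2.16 ± 0.21 (edgeR adjusted p = 2.31e-06, 1.42e-07 and 7.69e-10). The mESC value of Sox1 rests on 13, 13 and 14 chromatin reads and was -1.43 without the first mESC cytoplasm library. On the log2(TPM + 1) scale the Sox2 values were -0.66, -0.57 and -1.07, on the same side of 0 but called in mCtx alone. The same held for Sox1, with -0.29, -0.37 and -1.04.

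The chromatin-to-cytoplasm ratio of Sox4 was lower in mNPC and in mCtx than in mESC by counts. Chromatin Sox4 was 15.2, 24.99 and 17.1 CPM in mESC, which overlaps the cytoplasm, 355, 381 and 297 in mNPC, and 94.4, 96.7 and 102 in mCtx, below the cytoplasm without overlap in the latter pair. The log2 fold change of chromatin over cytoplasm was -1.52 ± 0.17 in mNPC and -2.40 ± 0.17 in mCtx (edgeR adjusted p = 1.02e-08 and 3.48e-12). In mESC the adjusted p was 0.335. The difference of mNPC from mESC was itself tested, at -1.33 ± 0.24 (edgeR adjusted p = 7.14e-05), and that of mCtx from mESC at -2.21 ± 0.24 (adjusted p = 2.5e-08). The difference of mCtx from mNPC was -0.88 ± 0.24 (edgeR adjusted p = 0.00521) and was not called, being short of the minimum fold change. That difference was called on the log2(TPM + 1) scale, at -1.50 (limma adjusted p = 3.69e-05). By counts it was called without the first mNPC cytoplasm library, at -1.01. Of all genes, 28.0% and 40.6% were called in the 2 tests against mESC, and 4 and 2 members were. In mESC and mCtx same-numbered libraries of chromatin and cytoplasm deviated together, which the main model leaves out. With the culture as a block the count for mCtx against mESC was 4, with Sox5 and Sox21 added.

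Sox11 was level between chromatin and cytoplasm in mESC and mNPC by counts and low in mCtx chromatin. Its chromatin level was 3.70, 8.44 and 10.7 CPM in mESC, against the cytoplasmic values given above, and the groups overlap. The log2 fold change was -0.03 ± 0.36 in mESC and -0.03 ± 0.34 in mNPC (edgeR adjusted p = 0.955 and 0.987), and -2.94 ± 0.36 in mCtx (adjusted p = 4.83e-08). Without the 3 mESC libraries numbered 1 the mESC value was -0.0062. The difference of mCtx from mNPC was -2.91 ± 0.49 (edgeR adjusted p = 4.6e-05), in a test that called 19.0% of all genes and 2 members. In TPM Sox11 was higher in chromatin in mESC and mNPC, by 1.77 and 1.12 on the log2(TPM + 1) scale, both called, and the mCtx value was -0.38 and was not called. The difference of mCtx from mNPC had the same sign in TPM, at -1.50, and was called.

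Sox8 and Sox5 depended on the cell type and on the table. Sox8 in mNPC was level by counts, with a log2 fold change of -0.03 ± 0.17 (edgeR adjusted p = 0.929), while its TPM were 556, 582 and 481 in chromatin against 274, 215 and 194 in cytoplasm, without overlap. That TPM difference was called, at 1.25 (limma adjusted p = 7.05e-07). Sox8 in mESC was -1.14 ± 0.30 by counts (edgeR adjusted p = 0.00154), from 7, 17 and 25 chromatin reads. Without the 3 mESC libraries numbered 1 it was -0.58 and was not called. Sox5 in mESC was higher in chromatin by 1.90 ± 0.56 (edgeR adjusted p = 0.00352), from 44, 21 and 9 reads against 9, 2 and 3 in cytoplasm. That call ended without the first mESC chromatin library, at 1.11 with an edgeR adjusted p of 0.0707, and the sign turned in TPM. It was 2.92 without the first mESC cytoplasm library, and 2.11 (adjusted p = 0.00214), still called, without all 3 mESC libraries numbered 1. In mCtx Sox5 was 0.65 ± 0.24 (edgeR adjusted p = 0.0182), short of the minimum fold change, and Sox6 was 0.02 ± 0.38 (adjusted p = 0.997).

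Sox9, Sox21 and Sox10 were lower in chromatin in some cell types by counts. Sox9 was 75.3, 78.7 and 74.3 CPM in mNPC chromatin and 10.96, 11.2 and 9.42 in mCtx chromatin, each below the cytoplasm, with log2 fold changes of -1.39 ± 0.14 and -1.70 ± 0.15 (edgeR adjusted p = 1.22e-09 and 7.54e-11). Sox21 was 8.14, 9.55 and 7.88 CPM in mCtx chromatin, with -1.62 ± 0.35 (edgeR adjusted p = 0.000214). In mNPC Sox21 was -0.93 ± 0.33 (edgeR adjusted p = 0.0136), short of the minimum fold change and of the opposite sign in TPM. It was called without the second mNPC chromatin library, at -1.03, or the third mNPC cytoplasm library, at -1.004. Sox10 in mESC chromatin rested on 15, 11 and 5 reads, with -2.19 ± 0.44 (edgeR adjusted p = 8.01e-05). In mCtx Sox10 had 2, 4 and 4 chromatin reads, and its call at -1.47 ± 0.65 (edgeR adjusted p = 0.0469) was lost without any single chromatin library and without the first or the second cytoplasmic one. Without the first cytoplasmic library it was -0.77. None of these Sox9, Sox21 and Sox10 values was called on the log2(TPM + 1) scale.

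Gene structure was set beside these values. Of the 408 coding genes without introns, 61.8% were lower in mCtx chromatin than in cytoplasm, against 23.6% of the 15197 with introns. The 5 members without introns were all among the lower ones there, with log2 fold changes from -2.94 to -1.62, and 2 of the 5 with introns were. In mNPC the shares were 41.9% and 21.5%, with 3 and 1 members lower. In mESC they were 36.5% and 22%, with 2 and 2 members lower. The part of intron content in the SOX values was not tested.

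Nucleoplasm against cytoplasm gave fewer calls. In mESC 3 members were lower, Sox1, Sox8 and Sox10, against 8.95% of all genes, and none was called higher, against 27.5%. Sox1 and Sox8 were not called without the 3 mESC libraries numbered 1, at -0.63 and -0.76. Sox1 was not called without the third mESC nucleoplasm library either, at -0.84. In mCtx 5 were lower, Sox1, Sox2, Sox6, Sox9 and Sox11, against 9.57%, and none higher, against 11.7%, with log2 fold changes from -1.46 to -1.005. Of these, Sox6 had an edgeR adjusted p of 0.0251 and lost the call without any of 4 libraries, at -1.01 without the first cytoplasmic one, and Sox9 lost it without that library too, at -0.99. Sox11 lost the call without the third cytoplasmic library, at -0.80. In mNPC no member was called by edgeR or by DESeq2, against 8.56% of all genes lower and 16.4% higher. By edgeR 7 members had an unadjusted p under 0.05 and 5 an adjusted p under 0.05. Of the 18226 genes tested, 8966 had an adjusted p under 0.05 there. Nucleoplasmic Sox2 in mNPC, at 260.1, 273 and 274 CPM, lay below all cytoplasmic libraries and just short of the minimum fold change (edgeR adjusted p = 1.42e-07).

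The loci of Sox1 and Sox2 hold a second gene on the same strand. Sox1, on chromosome 8 at 12395295 to 12400126, lies inside Sox1ot, and Sox2, on chromosome 3 at 34650005 to 34652461, lies inside a gene of the count table that has no symbol in GENCODE M21. In all 27 libraries the outer gene had at least as many counts as the inner one, and its counts beyond those of the inner gene were taken as reads outside it. In mESC cytoplasm 0.374% ± 0.117 (SD, n = 3) of the locus reads lay outside Sox2. The share was 4.27% ± 0.488 in mNPC cytoplasm and 19.9% ± 2.37 in mCtx cytoplasm. In chromatin it was 5.59% ± 5.00 in mESC, with the first library high, 23.9% ± 1.92 in mNPC and 55.5% ± 2.01 in mCtx. For Sox1 the share in chromatin was 44.4% ± 2.09 in mNPC and 82.7% ± 1.09 in mCtx. Reads of the outer transcript that fall on Sox1 or Sox2 cannot be told apart from their own.

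**Figure D5:**
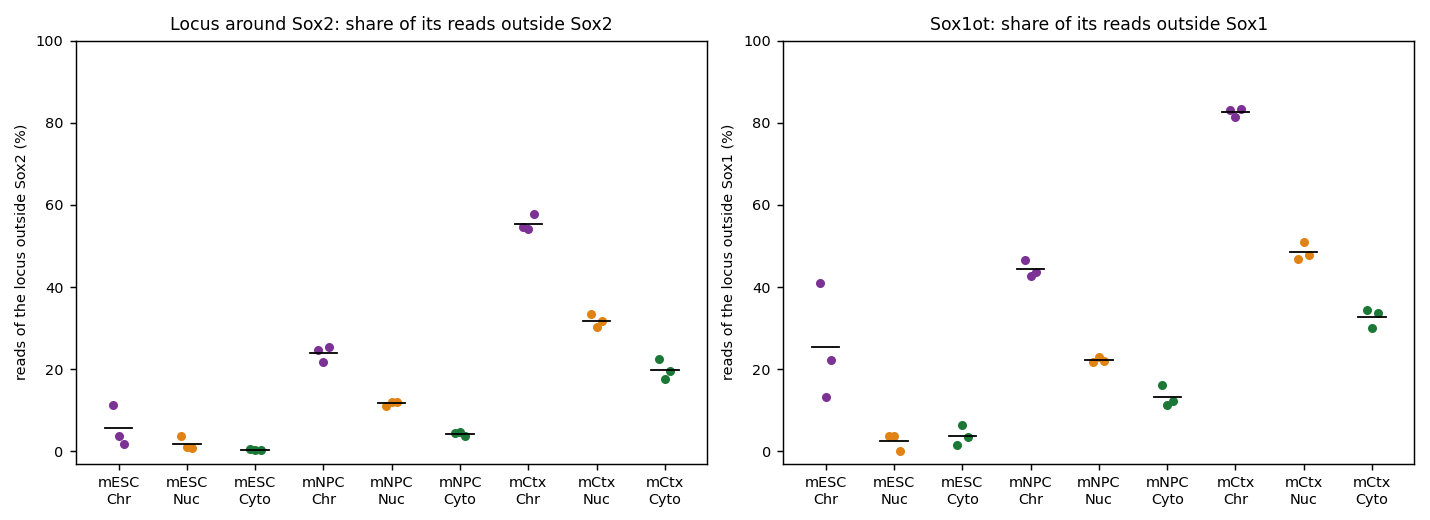
Share of the locus reads (percent, vertical axes) that fall outside Sox2 and outside Sox1, in separate panels, for each library (points) with the mean of 3 (lines), by cell type and fraction. The share is highest in mCtx chromatin for both, at 55.5% and 82.7%.

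The TPM table gave Sox2ot, the long noncoding RNA that surrounds Sox2, on its own. Sox2ot was 10.7, 4.80 and 3.57 TPM in mESC chromatin, with the first library high, and 0.730, 0.350 and 0.420 in mESC cytoplasm. In mNPC it was 40.1, 39.9 and 34.4 TPM in chromatin and 13.1, 12.1 and 9.88 in cytoplasm, without overlap. In mCtx the chromatin values of Sox2ot, 11.5, 11.1 and 13.9 TPM, overlap the cytoplasmic ones, 12.2, 8.46 and 8.96. Of 5 SOX-linked noncoding RNAs listed, Sox1ot and Sox6os were found in the count table. Both were higher in mNPC than in mESC cytoplasm, against 29.8% of all genes. From mNPC to mCtx cytoplasm Sox6os was lower, against 20.0% of all genes, and Sox1ot was not called. The counts of Sox1ot hold those of Sox1, as given above.

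Among the other SOX genes, 9 were listed and 8 could be tested. In mNPC against mESC cytoplasm 6 of them were lower, against 29.6% of all genes, and 1, the SOXB1 gene Sox3, was higher, against 29.8%. Sox3 was 3.76, 3.11 and 4.54 CPM in mESC, 147, 123 and 98.7 in mNPC and 9.42, 11.8 and 10.6 in mCtx. Sox15 was 22.6, 26.4 and 31.04 CPM in mESC cytoplasm and at 0 in all mCtx cytoplasm libraries. Sox12, the third SOXC gene, was 74.03, 75.2 and 82.4 CPM in mNPC and 250.4, 296 and 284 in mCtx cytoplasm, where it was higher (log2 fold change 1.84 ± 0.16, edgeR adjusted p = 1.34e-10).

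Partner factors and known targets were counted from lists. Of 10 POU, PAX and pluripotency partners, 4 were higher and 5 lower in mNPC than in mESC cytoplasm, against 29.8% and 29.6% of all genes. Among them Pou5f1, which encodes Oct4, was 861 to 1525 CPM in mESC and at 0 in every mNPC cytoplasm library, and Pou3f3 was 142, 125 and 106 CPM in mNPC against at most 0.349 in mESC. Of 9 targets known for SOXB1 factors, 4 were higher and 5 lower in mNPC than in mESC cytoplasm, against the same shares. From mNPC to mCtx 5 were lower, against 20.0% of all genes, and none was called higher, against 24.4%. Hes5, a Notch target of progenitors, was 429, 364 and 431 CPM in mNPC and 24.8, 27.03 and 20.4 in mCtx, without overlap.

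Of 6 targets known for SOXC factors, 2 were higher in mNPC than in mESC cytoplasm, Dcx and Map2, and 2 lower, Neurod1 and Tubb3. The shares of all genes there were 29.8% and 29.6%. From mNPC to mCtx cytoplasm 4 were higher and 1, Tead2, was lower, against 24.4% and 20.0% of all genes. Their median log2 fold change in that step was 4.27, against 0.00 over all genes. Dcx, a microtubule protein of migrating neurons, was 12.7, 11.1 and 6.48 CPM in mNPC and 1350, 873 and 1292 in mCtx. Tubb3, the neuronal tubulin, was 63.8, 42.3 and 44.5 CPM in mNPC and 2317, 2793 and 2823 in mCtx. Of 10 tested targets known for SOXE and SOXD factors, 5 were higher and 3 lower in mNPC than in mESC cytoplasm, against 29.8% and 29.6% of all genes. From mNPC to mCtx 3 were higher and 4 lower, against 24.4% and 20.0%. Pdgfra, the receptor of oligodendrocyte precursors, was 57.3, 37.9 and 38.01 CPM in mNPC and 3.14, 2.26 and 2.14 in mCtx.

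The members' patterns over the 9 group means of log2(CPM + 1) were compared as a description, with Pearson's r and no p. Sox6 and Sox8 were the closest pair of members, at 0.992, and the lowest value was -0.577, between Sox2 and Sox5. Among 12527 genes with at least 10 CPM in a group, the closest to Sox8 were Sall3, Hes5 and Gadd45g, at 0.996, 0.995 and 0.994. The closest to Sox9 were Prr18, Olig2 and Cap2, at 0.998, 0.996 and 0.994. Cdk1, Ccnb1 and Rassf3 were closest to Sox2, at 0.993, 0.991 and 0.991. Lbh was closest to Sox1 at 0.997, Maf to Sox4 at 0.997, Zeb2 to Sox5 at 0.996 and Gadd45g to Sox6 at 0.994. Zfp503 was closest to Sox21 at 0.996 and Ints14 to Sox10 at 0.991. For Sox11 the closest were Csnk1g3, Thtpa and Prickle4, at 0.981, 0.941 and 0.937. The 9 points come from 3 cell types whose fractions share cultures, so they are not independent.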

How the data were processed

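RNA was sequenced from 27 libraries, 3 for each of 9 groups (mESC, mNPC and mCtx in chromatin, nucleoplasm and cytoplasm), grouped by the labels. The authors deposited whole-number counts per gene and TPM values. STAR, featureCounts, kallisto 0.43.0 and the mm10 build are named in the submitters' processing notes, and the libraries were oligo-dT selected, stranded and paired-end, per the labels' protocols. The 9 chromatin columns of the deposited count table also hold raw counts and were treated as such. Symbols were matched by Ensembl ID in GENCODE M21 for 35533 of the 37332 genes counted.

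Counts were tested with edgeR 4.0.16 (R 4.3.3), with filterByExpr, TMM scaling, 1 quasi-likelihood model over all 27 libraries and 18 contrasts (6 between fractions, 9 between cell types, 3 between cell types of the chromatin-to-cytoplasm difference), each with Benjamini-Hochberg adjustment over 18226 genes. The standard error of a log2 fold change is its size over the root of F. CPM are counts over the TMM-scaled library size. Deposited TPM were compared with limma 3.58.1 as log2(TPM + 1), a scale that understates the change of low genes. Library totals were 13496984 to 20808290 in mESC, 10622897 to 23608781 in mNPC and 15607890 to 24537526 in mCtx. Intervals and errors cover these samples only. The test was tried on simulated counts first. The other alternatives were RLE size factors, library totals, other filters, DESeq2 1.42.0, only the libraries compared, a replicate block and leaving out each library.

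Same-numbered libraries were checked for pairing by the correlation of their deviations from group means. It was 0.43 to 0.77 between mESC fractions, 0.08 to 0.33 between mCtx fractions, -0.27 to 0.48 between mNPC fractions and -0.26 to 0.13 between cell types. Every pair was over 0.1 between mESC fractions and between mCtx chromatin and cytoplasm, and these were taken as paired. The main model has no term for this pairing, which enters only the alternative with a block. The block was the culture, cell type and replicate number together, for fractions and differences, and the replicate number between cell types.

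The members and lists were chosen with earlier results of these data known. All members are described. Of a list of over 6 genes, at most 4 are named, those with the highest mean CPM, and for each member up to 3 genes of most similar pattern.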

Additional observations from a re-analysis of the deposited data

Results flagged for a closer look

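The chromatin-to-cytoplasm log2 fold change differed between cell types for 5 members, in 8 tests of the difference itself (edgeR, adjusted p under 0.05 and a size of at least 1). There were 4 members for mNPC against mESC, 2 for mCtx against mNPC and 2 for mCtx against mESC, beside 28.0%, 19.0% and 40.6% of all genes. Between mNPC and mESC the difference was -1.33 ± 0.24 for Sox4 (adjusted p = 7.14e-05) and -2.56 ± 0.61 for Sox5 (adjusted p = 0.00122). In the same contrast it was 1.11 ± 0.35 for Sox8 (adjusted p = 0.0119) and 1.66 ± 0.54 for Sox10 (adjusted p = 0.0154). Between mCtx and mNPC it was 1.31 ± 0.34 for Sox5 (edgeR adjusted p = 0.0043) and -2.91 ± 0.49 for Sox11 (adjusted p = 4.6e-05). Between mCtx and mESC it was -2.21 ± 0.24 for Sox4 (edgeR adjusted p = 2.5e-08) and -2.91 ± 0.50 for Sox11 (adjusted p = 2.15e-05).

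The Sox8 value rests on the mESC libraries numbered 1: without all 3 it was 0.42 (edgeR adjusted p = 0.341). Sox5 between mNPC and mESC stayed called but was -1.77 without the first mESC chromatin library and -3.71 without the first mESC cytoplasm one. Sox10 between mNPC and mESC lost its call without the first, at 1.29, or the second mESC cytoplasm library or the third mESC chromatin library. On the log2(TPM + 1) scale Sox8 between mNPC and mESC, Sox4 and Sox11 between mCtx and mESC, and Sox11 between mCtx and mNPC were called, and the other 4 were not.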

How the results depend on the processing

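The calls between cell types varied less than those between fractions. Of 334 member counts under an alternative, 298 stayed within 1.5 times the main count, and of 2070 log2 fold changes 1876 kept their direction and their side of the threshold. The depth limits Sox1, Sox5, Sox6, Sox8, Sox9 and Sox10 in mESC and Sox10 in mCtx, which rest on few reads. The authors' TPM and counts come from different programs and cover 53379 and 37332 genes, and the deposited gene lengths of the counts include introns. The transcript models behind the TPM were not examined, and the cause of the disagreement was not tested.

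With the replicate block, 122 log2 fold changes kept their direction and their call. For the differences between cell types these cover the members called without the block. Sox6 was added in the mNPC minus mESC difference, and Sox5 and Sox21 in the mCtx minus mESC one, where the number of members called went from 2 to 4; no other member count moved by over 1.5 times.

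For nucleoplasm against cytoplasm, the main counts of 3 in mESC, 0 in mNPC and 5 in mCtx became 1 in mESC and 3 in mNPC with library totals, 0 in mESC with only the libraries compared, 3 in mCtx with DESeq2 and 5 in mNPC with no minimum fold change. With log2(TPM + 1), with or without the filter, they were 0, 3 and 2, and with log2(TPM + 0.1) 3 in mNPC and 3 in mCtx. For chromatin against cytoplasm the main counts of 5, 4 and 7 became 1, 2 and 3 with log2(TPM + 1), with or without the filter, and 2, 2 and 3 with log2(TPM + 0.1). The mNPC minus mESC difference went from 4 to 1 and 2 on those scales. Without the 3 mESC libraries numbered 1, an alternative chosen after seeing the data, nucleoplasm in mESC gave 1 and the mCtx minus mESC difference 4. Leaving out 1 library at a time gave 3 to 6 for mESC chromatin, 1 to 5 for mESC nucleoplasm, 0 to 1 for mNPC nucleoplasm, 3 to 5 for mCtx nucleoplasm and 2 to 5 for the mCtx minus mESC difference.

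Log2 fold changes that changed sign were mostly near 0. For chromatin against cytoplasm, Sox11 in mESC was 0.50 when scaled by library totals, 0.00118 by RLE size factors, 0.00675 with no filter, 0.00677 with DESeq2, 1.77 with log2(TPM + 1) and 2.07 with log2(TPM + 0.1). In mNPC, Sox8 was 0.29 with library totals and 1.25 and 1.26 in TPM, Sox11 was 0.29, 1.12 and 1.18 in the same order, and Sox21 was 0.18 and 0.18 in TPM. Sox6 in mCtx was -0.00251 with no filter, -0.0452 with at least 1 CPM in 3 libraries, and -0.66 and -0.78 in TPM. Sox5 in mESC was -0.0702 and -0.33 in TPM, and its mNPC minus mESC difference was 0.00239 with log2(TPM + 0.1). For mNPC over mESC, Sox2 in cytoplasm was 0.0572 with library totals and 0.0697 and 0.0699 in TPM, and in chromatin 0.16 and 0.16 in TPM. For mCtx over mNPC, Sox5 in cytoplasm was -0.28 and -0.30 and Sox11 in chromatin 1.29 and 1.32 in TPM. The TPM values without the filter were equal to those with it.

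Leaving out 1 library at a time, the log2 fold change of chromatin over cytoplasm ranged from -0.35 to 0.29 for Sox11 in mESC, from -0.10 to 0.088 for Sox8 and from -0.24 to 0.17 for Sox11 in mNPC, and from -0.14 to 0.10 for Sox6 in mCtx. For Sox2 in mNPC over mESC it ranged from -0.22 to 0.018 in chromatin and from -0.18 to 0.011 in nucleoplasm. Without a minimum fold change, genes called between nucleoplasm and cytoplasm numbered 11521 in place of 6652 in mESC, 8966 in place of 4553 in mNPC and 8523 in place of 3878 in mCtx, and the mCtx minus mNPC difference called 5830 in place of 3472. In TPM that difference called 5417 with log2(TPM + 1), 5357 without the filter and 5592 with log2(TPM + 0.1), and mNPC chromatin against cytoplasm called 14714 in place of 8904 with log2(TPM + 0.1). The share of called genes that were higher also moved with the scaling. For nucleoplasm over cytoplasm it was 75.5% in mESC and 65.7% in mNPC, against 90.8% and 42.2% with library totals, 68% and 76.8% with RLE size factors and 79.6% and 33.8% with log2(TPM + 1). For mCtx over mNPC nucleoplasm it was 52.7%, against 54.9%, 50.1% and 63.5% in the same order, and for the mNPC minus mESC difference 36.8%, against 24.8%, 36.2% and 45.8%.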
